A study of Mus musculus with 8 samples.

Results

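The change that deletion of Wls makes to gene expression in the mouse trachea was compared between E11.5 and E13.5 (days of embryonic development). The quantity described is a difference of 2 differences. The genotype effect at a stage is the log2 ratio of the WlsShhCre level to the control level, and the stage difference is the effect at E13.5 minus the effect at E11.5. A stage difference above 0 (higher) means that the mutant stood higher relative to its control at E13.5 than at E11.5, and one below 0 (lower) that it stood lower. All 8 libraries of the series entered, 8 of 8, with 2 in each of 4 groups: E11.5 control, E11.5 WlsShhCre, E13.5 control and E13.5 WlsShhCre. WlsShhCre libraries are called mutants here, as the genotype label names Wls and a Cre at Shh. The labels give no strain, sex, litter or allele for the controls, and do not say whether the 2 libraries of a group are separate embryos, pools or repeats, so p-values measure the spread between these libraries, which may be technical.

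Wls encodes the cargo receptor that carries lipid-modified Wnt proteins to the cell surface, and a cell without it cannot secrete them. Shh is active in foregut epithelium, so a Cre at that locus deletes Wls there, while the surrounding mesenchyme keeps its own copy. In the trachea, Wnt ligands from the epithelium act on the mesenchyme, which forms cartilage on the ventral side and a band of smooth muscle, the trachealis, on the dorsal side. These tissues take shape between the stages compared here. RNA came from whole dissected tracheae, in which fewer cells of a type and less RNA per cell cannot be told apart.

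Total estimated counts ran from 9.90 to 18.48 M per library, and both E13.5 mutant libraries, at 18.48 and 16.76 M, were deeper than the 6 others. Nkx2-1, the transcription factor of respiratory epithelium, lay between 52.2 and 93.3 CPM, counts scaled to the size of the library, so this marker of the labelled tissue was present in every library. The female-specific RNA Xist differed between replicates, with 6.34 CPM for E13.5 mutant 1 and 1224 for E13.5 mutant 2. It also moved with genotype: the controls had 1168 and 1847 CPM at E11.5 and 2673 and 1841 at E13.5, and the E11.5 mutants 846 and 526, so the mutants stood below the controls at both stages. The Y-linked Ddx3y stood above the controls in the mutants at both stages, also without overlap, at 32.8 and 43.2 CPM in the controls and 52.2 and 61.8 in the mutants at E11.5, and 19.8 and 48.2 against 66.8 and 106 at E13.5. Neither had a called stage difference (adjusted p = 0.95 and 0.72). The part of sex makeup in the results was not tested. One gene group sets the E13.5 mutants apart from all 6 other libraries and touches many of the results. Of 53 markers of intestine listed, 42 were tested, and their summed level was 286 and 266 CPM in the E11.5 controls, 375 and 328 in the E11.5 mutants, 248 and 248 in the E13.5 controls, and 70.2 and 85.9 in the E13.5 mutants. These genes include products of adult gut cells such as Reg3b, Sis, Lyz1 and the defensins. The level of this group moved with the stage difference, and what it is due to was not tested.

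Of 14901 genes tested, 497 (3.34%) had a stage difference that passed an adjusted p of 0.05 in edgeR's quasi-likelihood test with Benjamini-Hochberg adjustment, and are described as called. The stage difference was higher for 243 of them (1.63% of the genes tested) and lower for 254 (1.7%), and the median over all genes tested was -0.0001. At least a 2-fold stage difference was reached by 83 of the higher and 154 of the lower genes. In the same fit the genotype effect itself passed for 54 genes (0.362%) at E11.5 and for 1755 (11.8%) at E13.5. Of the 497 genes, 473 were also called for the effect at E13.5 and 17 for the effect at E11.5. The E13.5 mutant and control libraries did not overlap for 493 of the 497, against 54.5% of all genes tested, and the E11.5 libraries did not overlap for 284, against 36.0%. The count depended on single libraries. It was 280 without E11.5 control 1, 320 without E11.5 mutant 1 and 287 without E13.5 control 1, and 192 genes were called whichever library was left out. The higher count was 123 without E11.5 control 1 and 126 without E13.5 control 1. The lower count was 153 without E11.5 control 2, 155 without E11.5 mutant 1, 157 without E11.5 control 1 and 161 without E13.5 control 1.

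The called genes were sorted by the size and sign of the genotype effect at each stage, with an effect of at least 0.3 on the log2 scale counted as present. The largest class, 321 genes, had an effect under 0.3 at E11.5 and at least 0.3 at E13.5, and is described as new at E13.5: 177 were higher and 144 lower. A change of sign, with effects of at least 0.3 in opposite directions, was seen for 113 genes, 31 higher and 82 lower. Of the 113, 101 were called for the effect at E13.5 and 3 for the effect at E11.5. For most of them the sign at E11.5 is thus an estimate that did not pass. A further 35 had an effect in the same direction that was larger at E13.5, and 9 had an effect at E11.5 but not at E13.5. No called gene had an effect in the same direction that was smaller at E13.5, and 19 stayed under 0.3 at both stages. Over all genes tested, called or not, 4.66% showed the sign change pattern and 15.5% the new at E13.5 pattern. An effect under the limit at E11.5 does not show that there was none. Single libraries moved these counts as well. Higher genes new at E13.5 numbered 87 without E11.5 control 1, 88 without E13.5 control 1, 101 without E11.5 mutant 1 and 106 without E11.5 control 2. The lower ones numbered 66 without E11.5 mutant 1, 75 without E11.5 control 1, 78 without E11.5 control 2 and 91 without E13.5 control 1. Sign changes in the higher direction numbered 18 without E13.5 control 1. In the lower direction they numbered 41 without E11.5 mutant 1, 51 without E13.5 control 1, 53 without E11.5 control 2 and 145 without E11.5 mutant 2.

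**Figure D1:**
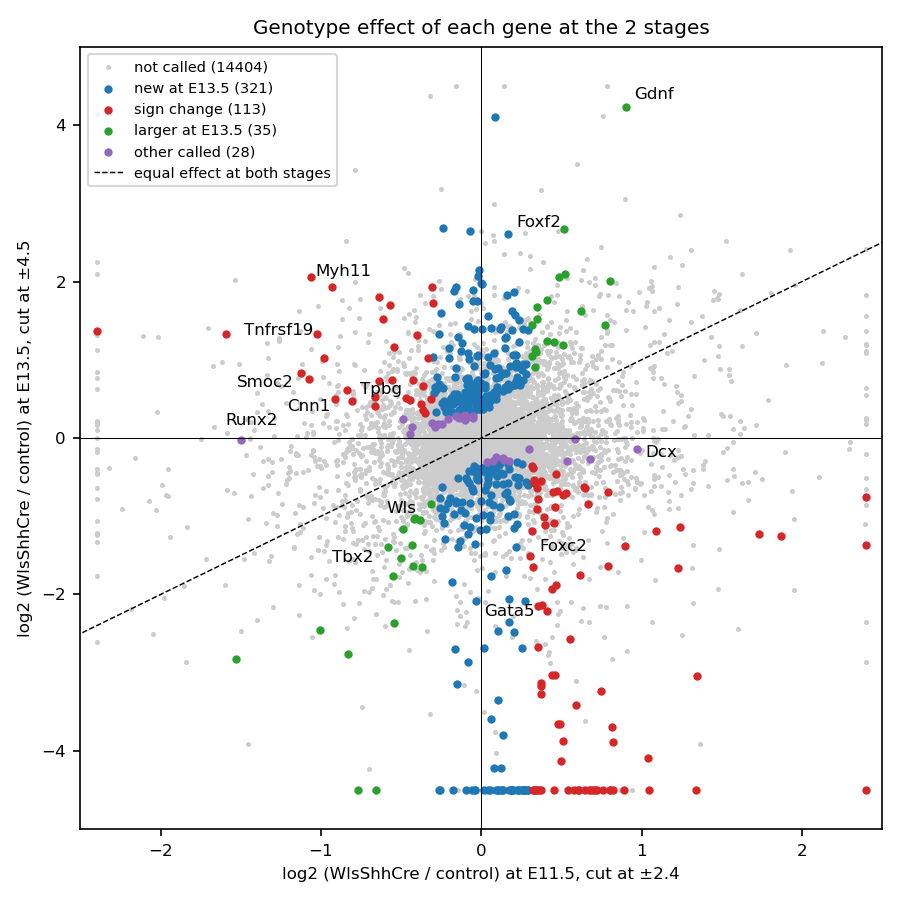
Genotype effect of every tested gene, as the log2 ratio of mutant to control, at E11.5 (horizontal axis) and E13.5 (vertical axis). Grey points are genes whose stage difference was not called, coloured points the 497 called genes by class, and the dashed line marks equal effects; points beyond 2.4 or 4.5 are drawn at the edge. The called genes spread along the vertical axis, and a row of genes sits at the lower edge.

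Part of the lower class rests on genes that were close to 0 in the E13.5 mutants. There were 150 tested genes with under 0.5 CPM in both E13.5 mutant libraries and a higher level in each of the 6 others, and 79 of them were called, all lower. This choice of genes fixes the low E13.5 mutant level and the lack of overlap at E13.5, and largely fixes the direction, so none of these is a finding. Their summed level was 301 and 282 CPM in the E11.5 controls, 409.7 and 327 in the E11.5 mutants, 249.9 and 267 in the E13.5 controls, and 4.46 and 5.33 in the E13.5 mutants. Of these 79 genes, 68 had an effect above 0 at E11.5, with a median of 0.29. A call for a lower stage difference favours genes with an effect above 0 at E11.5, so that count is not a finding either. Of the 82 lower sign changes 38 belong to the 79, and of the 144 lower genes new at E13.5 39 do. In the intestine list 34 of 42 tested members (81.0%) were called lower, beside 1.7% of all genes tested, and none higher. Of the 34, 23 are among the 79, and 14 of the 42 tested members had no counts in a whole group. The intestine list was drawn up with earlier results of these libraries known. Its share and direction are thus not independent evidence. Pigr, which carries antibodies across mucosal epithelium, stood at 20.1 and 17.4 CPM among E11.5 controls, 23.6 and 20.7 among E11.5 mutants, 18.3 and 16.96 among E13.5 controls and 0.215 and 0.234 among E13.5 mutants. The E11.5 groups did not overlap, and the gap at E13.5 follows from the choice of genes. The stage difference of Pigr was -6.48 (SE 0.28). Reg3g, a secreted antibacterial lectin of the gut, was at 9.31 and 10.5 CPM among E11.5 controls, 15.3 and 17.02 among E11.5 mutants, 10.02 and 8.72 among E13.5 controls and 0.269 and 0.117 among E13.5 mutants. The effect on Reg3g ran from 0.71 at E11.5 to -5.51 at E13.5. For the cell surface mucin Muc13 the values were 8.38 and 5.83 CPM among E11.5 controls, 7.33 and 9.61 among E11.5 mutants, 7.11 and 6.28 among E13.5 controls and 0.107 and 0.176 among E13.5 mutants. The E11.5 groups of Muc13 overlapped, and its gap at E13.5 again follows from the choice. Reg3b, Sis, Dmbt1, AI747448, Gm15308 and Defa20 had no counts in either E13.5 mutant library, so no fold is given for them. In the 6 other libraries Reg3b lay between 16.0 and 33.5 CPM and Dmbt1, a scavenger receptor protein of mucosal surfaces, between 12.3 and 24.1 CPM. Fabp6 had 0.0537 and 0 CPM in the E13.5 mutants. Lyz1, Itln1 and Mgam, which encode a lysozyme of Paneth cells, an intestinal lectin and a brush border enzyme that splits starch products, kept 0.484 to 1.29 CPM in the E13.5 mutants and had stage differences of -4.34, -3.93 and -3.65. Reads of defensin and Reg genes, which have near-identical copies, could be split between family members. Whether reads were also shared between the lysozyme genes Lyz1 and Lyz2 was not tested. Among genes with a mean of at least 1 CPM in every group, 386 were called, 233 higher and 153 lower, so the balance of directions depends on these low genes.

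**Figure D2:**
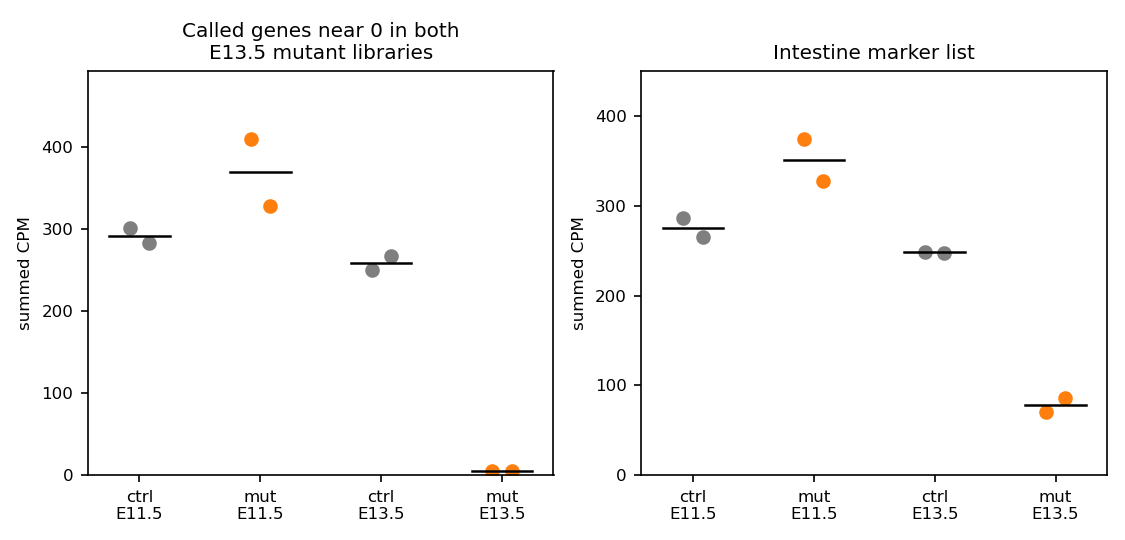
Summed level in CPM of the 79 called genes that were near 0 in both E13.5 mutant libraries (left) and of the intestine marker list (right), in each library (points; grey control, orange mutant) with the group mean (bars). Both sums were between 248 and 409.7 CPM in 6 libraries, and at 4.46 and 5.33 (left) and 70.2 and 85.9 (right) in the E13.5 mutants.

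Wls, the targeted gene, was lower in the mutants at both stages and by more at E13.5. Its level was 155 and 164 CPM among E11.5 controls, 118 and 109 among E11.5 mutants, 168 and 158 among E13.5 controls and 73.9 and 71.7 among E13.5 mutants. The mutant and control libraries did not overlap at either stage, and the control level was close at the 2 stages. The effect went from -0.49 at E11.5 to -1.16 at E13.5, a stage difference of -0.67 (SE 0.09, adjusted p = 8.5e-04), called whichever library was left out. Wls is one of the 17 lower genes in the class with a larger effect at E13.5.

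Smoc2, Tpbg and Cnn1 were the genes that edgeR called at both stages with effects in opposite directions, a list that depended on the method and on single libraries. Each was lower in the E11.5 mutants and higher in the E13.5 mutants. Smoc2 (gene ID 64074), a secreted calcium-binding protein of the extracellular matrix, stood at 147 and 148 CPM among E11.5 controls, 71.3 and 68.7 among E11.5 mutants, 120.1 and 137 among E13.5 controls and 220.3 and 213 among E13.5 mutants. The mutant level was below the control level in every library at E11.5 and above it in every library at E13.5. The genotype effect moved from -1.07 (adjusted p = 9.0e-06) to 0.75 (adjusted p = 6.6e-06), and the stage difference was 1.83 (SE 0.09, adjusted p = 2.0e-07). Tpbg, a membrane glycoprotein that dampens Wnt/beta-catenin signalling, was measured at 70.1 and 60.1 CPM among E11.5 controls, 37.5 and 36.9 among E11.5 mutants, 32.2 and 35.6 among E13.5 controls and 46.7 and 47.2 among E13.5 mutants. The E13.5 controls stood below the E11.5 controls and the E13.5 mutants above the E11.5 mutants, and the stage difference was 1.28 (SE 0.12, adjusted p = 8.7e-05). Cnn1 encodes calponin, an actin-binding protein of smooth muscle, and its level was 24.6 and 26.6 CPM among E11.5 controls, 14.3 and 13.1 among E11.5 mutants, 73.8 and 79.3 among E13.5 controls and 95.9 and 120.3 among E13.5 mutants. The E13.5 libraries stood above the E11.5 libraries in both genotypes, with the mutants lowest at the early and highest at the late stage. The stage difference of Cnn1 was 1.41 (SE 0.17, adjusted p = 8.3e-04).

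The stage differences of these genes were called whichever library was left out, but the effects at the single stages were not. The effect on Cnn1 at E11.5 had an adjusted p of 0.088, 0.13, 0.084 and 0.10 without E11.5 mutant 1, E11.5 mutant 2, E11.5 control 1 and E11.5 control 2, and its effect at E13.5 one of 0.073 without E13.5 control 1. For Tpbg the effect at E13.5 had an adjusted p of 0.052 without E13.5 control 1. Both effects on Smoc2 stayed called in all 8 fits. The number of genes called at both stages with opposite signs ran from 1 without E13.5 control 1 to 10 without E13.5 mutant 2, and was 7 without E11.5 control 2, 8 without E11.5 mutant 2 and 8 without E13.5 mutant 1. DESeq2 gave 8 such genes, Myh11, Tnfrsf19, Col8a1, Ptn and Thbs1 beside these 3, the edgeR fit with a replicate block gave 11, and the fit with no low-count filter gave 8. With limma-voom there were 3, Smoc2, Tpbg and Reg3b, since the effect on Cnn1 at E11.5 had an adjusted p of 0.14. Smoc2 was among them in each of these fits.

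Other genes changed sign with a called stage difference while the effect at E11.5 alone was not called. Myocd, the coactivator that switches on smooth muscle contractile genes, was found at 27.5 and 38.6 CPM among E11.5 controls, 23.01 and 21.8 among E11.5 mutants, 35.6 and 39.6 among E13.5 controls and 110.5 and 135 among E13.5 mutants. The groups did not overlap at either stage, and the stage difference was 2.27 (SE 0.24, adjusted p = 0.0040). Fst, or follistatin, a secreted protein that binds activins, had 4.05 and 6.44 CPM among E11.5 controls, 3.26 and 3.62 among E11.5 mutants, 6.37 and 6.56 among E13.5 controls and 20.3 and 16.97 among E13.5 mutants. The E13.5 mutants stood above all other libraries, and the stage difference was 2.14 (SE 0.31). Tll1, a secreted metalloprotease of the tolloid family, had 8.66 and 8.58 CPM among E11.5 controls, 7.33 and 3.88 among E11.5 mutants, 7.49 and 6.09 among E13.5 controls and 25.9 and 21.4 among E13.5 mutants. Again both E13.5 mutants stood above every other library, and the stage difference was 2.44 (SE 0.34). Psd, an exchange factor for a small GTPase, went from -0.54 to 1.16. The predicted gene Gm3796 went from -0.40 to 1.32. Tnfrsf19, a receptor known as a Wnt/beta-catenin target, stood at 183 and 165 CPM among E11.5 controls, 92.7 and 84.04 among E11.5 mutants, 151 and 155 among E13.5 controls and 356 and 265 among E13.5 mutants. Mutant and control libraries were apart at both stages, and the stage difference was 2.00 (SE 0.21, adjusted p = 0.0061). Leaving out E11.5 mutant 1 or E13.5 control 1 ended the call (adjusted p up to 0.057). The stage differences of Myocd, Fst, Tll1, Psd and Gm3796 were called whichever library was left out.

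Sign changes in the lower direction, aside from the 38 genes near 0 in the E13.5 mutants, numbered 44. The effects on Foxc2, Glis3 and Pcdh20 at E11.5 alone were not called by edgeR (adjusted p = 0.26, 0.62 and 0.32). Foxc2, a forkhead factor of mesenchyme and lymphatic vessels, was at 41.2 and 48.1 CPM among E11.5 controls, 57.8 and 53.4 among E11.5 mutants, 28.6 and 31.7 among E13.5 controls and 12.9 and 13.6 among E13.5 mutants. It was above the control at E11.5 and below it at E13.5 in every library, with a stage difference of -1.50 (SE 0.14, adjusted p = 6.1e-05). Glis3, a zinc finger transcription factor, was at 4.699 and 4.98 CPM among E11.5 controls, 6.82 and 6.35 among E11.5 mutants, 10.5 and 11.53 among E13.5 controls and 2.79 and 2.98 among E13.5 mutants. Here too no groups overlapped, and the effect went from 0.44 to -1.93. Pcdh20, a protocadherin of the cell surface, had 1.29 and 1.63 CPM among E11.5 controls, 3.77 and 2.56 among E11.5 mutants, 15.4 and 14.9 among E13.5 controls and 5.16 and 8.13 among E13.5 mutants. The mutants stood above the controls at E11.5 and below them at E13.5. Its stage difference of -2.28 (SE 0.40, adjusted p = 0.0067) had an adjusted p of 0.050 without E11.5 control 1.

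**Figure D3:**
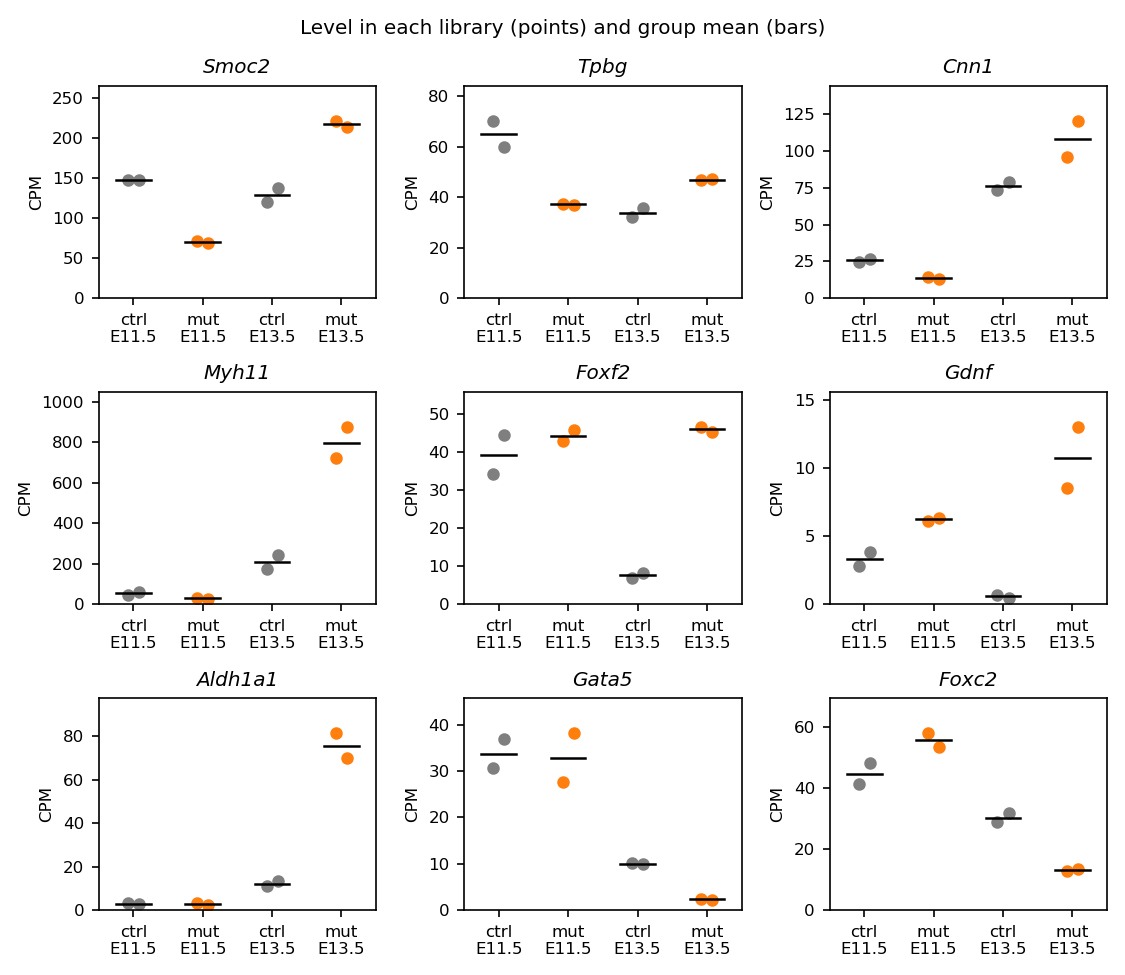
Level in CPM of 9 named genes in each library (points; grey control, orange mutant) with the group mean (bars). Smoc2, Tpbg, Cnn1 and Myh11 were below the controls in the E11.5 mutants and above them in the E13.5 mutants; Foxf2, Gdnf and Aldh1a1 were higher and Gata5 and Foxc2 lower in the E13.5 mutants than in their controls.

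Among the higher genes new at E13.5, Foxf2 had one of the largest stage differences. Foxf2 is a forkhead factor of gut and airway mesenchyme. Its level was 34.3 and 44.4 CPM among E11.5 controls, 42.8 and 45.7 among E11.5 mutants, 6.93 and 8.15 among E13.5 controls and 46.5 and 45.4 among E13.5 mutants. The E11.5 groups overlapped, the E13.5 controls stood well below all other libraries, and the E13.5 mutants stood near the E11.5 level. The effect moved from 0.17 to 2.60, a stage difference of 2.44 (SE 0.18, adjusted p = 1.4e-05). Aldh1a1, an enzyme that makes retinoic acid, was at 3.32 and 2.57 CPM among E11.5 controls, 3.26 and 2.38 among E11.5 mutants, 11.05 and 13.1 among E13.5 controls and 81.3 and 69.8 among E13.5 mutants. The E13.5 mutants stood above every other library, with a stage difference of 2.71 (SE 0.28, adjusted p = 1.3e-04). Ces1d, a carboxylesterase, had 12.6 and 13.6 CPM among E11.5 controls, 12.4 and 13.49 among E11.5 mutants, 5.99 and 8.53 among E13.5 controls and 31.4 and 29.7 among E13.5 mutants. The E11.5 groups overlapped closely and the E13.5 groups were apart. Gfra1, the receptor subunit that binds Gdnf, stood at 99.7 and 103 CPM among E11.5 controls, 98.9 and 101 among E11.5 mutants, 89.8 and 106 among E13.5 controls and 201 and 208 among E13.5 mutants. The mutants at E13.5 stood above the other 6 libraries, which lay close together, and the stage difference was 1.09 (SE 0.10, adjusted p = 6.1e-05).

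Gdnf itself, the growth factor of enteric and other neural crest cells, had a larger effect at E13.5 in the same direction. It was at 2.76 and 3.86 CPM among E11.5 controls, 6.11 and 6.35 among E11.5 mutants, 0.655 and 0.469 among E13.5 controls and 8.54 and 12.99 among E13.5 mutants. The E13.5 controls were the lowest and the E13.5 mutants the highest libraries, and neither stage had overlapping groups. The stage difference of 3.33 (SE 0.47, adjusted p = 0.0013) was the most positive among called genes with a mean of at least 5 CPM and no library at 0. Lsp1, an actin-binding protein, and Svil, which ties actin and myosin to membranes, had stage differences of 0.88 (SE 0.08) and 0.70 (SE 0.08). The calls of Foxf2, Aldh1a1, Ces1d, Gfra1, Gdnf, Lsp1 and Svil held whichever library was left out.

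Smooth muscle genes had higher stage differences as a group. Of 29 listed and tested, 16 (55.2%) were called higher, beside 1.63% of all genes tested, and none lower. Above 0 lay 27, beside 7447 of all 14901 genes tested, and the median was 0.75 beside -0.0001 over all genes. The median effect was -0.12 at E11.5 and 0.57 at E13.5. By role, 3 of 6 regulators, 10 of 17 contractile proteins and 3 of 6 channels and signalling proteins were called. The summed level of the list was 4535 and 4901 CPM in the E11.5 controls, 4609 and 4326 in the E11.5 mutants, 4725 and 5096 in the E13.5 controls, and 7529.6 and 8448 in the E13.5 mutants. Without E11.5 mutant 2 the number called was 8, and without E11.5 mutant 1 or E13.5 control 1 it was 9. The list was drawn up with earlier results of these libraries known, so its direction is not independent evidence.

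Among the contractile genes, Myh11, the smooth muscle myosin heavy chain, had the widest swing. It stood at 46.5 and 58.8 CPM among E11.5 controls, 27.99 and 27.2 among E11.5 mutants, 175 and 245 among E13.5 controls and 721 and 873 among E13.5 mutants. The stage difference was 2.86 (SE 0.33, adjusted p = 0.021), and the libraries did not overlap at either stage. The call did not hold without E11.5 mutant 1 or E11.5 mutant 2, where the adjusted p reached up to 0.13. Ppp1r12b, a regulatory subunit of myosin phosphatase, was at 17.6 and 19.3 CPM among E11.5 controls, 17.6 and 15.4 among E11.5 mutants, 61.7 and 62.4 among E13.5 controls and 103 and 109.5 among E13.5 mutants. Its E11.5 groups overlapped and its E13.5 groups did not, with a stage difference of 0.94 (SE 0.12, adjusted p = 8.5e-04). Of the genes that define the contractile cell but did not pass, Acta2, smooth muscle actin, went from -0.55 to 1.10 (stage difference 1.65, SE 0.30, adjusted p = 0.074). Tagln, an actin-binding protein, had a stage difference of 0.79 (SE 0.40, adjusted p = 0.46). Desmin (Des), Tpm1, Mkl1, Mkl2 and Prkg1 had effects under 0.3 at both stages.

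Among regulators and signalling proteins, Nkx6-1, a homeobox factor of dorsal tracheal mesenchyme, was at 44.5 and 35.8 CPM among E11.5 controls, 30.8 and 36.4 among E11.5 mutants, 11.1 and 14.7 among E13.5 controls and 35.5 and 43.1 among E13.5 mutants. The E13.5 controls stood below all other libraries, and the stage difference was 1.85 (SE 0.23, adjusted p = 0.0036). Pde5a, an enzyme that degrades cyclic GMP, stood at 196 and 196 CPM among E11.5 controls, 211 and 235 among E11.5 mutants, 114 and 119.7 among E13.5 controls and 318 and 403 among E13.5 mutants. It was higher in the mutants at both stages without overlap, by 0.19 at E11.5 and 1.63 at E13.5, a stage difference of 1.44 (adjusted p = 0.0016). The calcium channel gene Cacna1c had a stage difference of 0.74 (adjusted p = 0.0077). Srf, the transcription factor that Myocd binds, was at 128 and 112 CPM among E11.5 controls, 114 and 121 among E11.5 mutants, 65.9 and 68.5 among E13.5 controls and 87.6 and 89.3 among E13.5 mutants. Its E11.5 groups overlapped, and its stage difference was the smaller one of 0.43 (SE 0.10, adjusted p = 0.031). Its call was lost without E11.5 control 1, E11.5 mutant 1, E13.5 control 1, E13.5 control 2, E13.5 mutant 1 or E13.5 mutant 2, with an adjusted p of up to 0.15. The calls of Myocd, Cnn1, Ppp1r12b, Nkx6-1, Pde5a and Cacna1c held whichever library was left out.

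**Figure D4:**
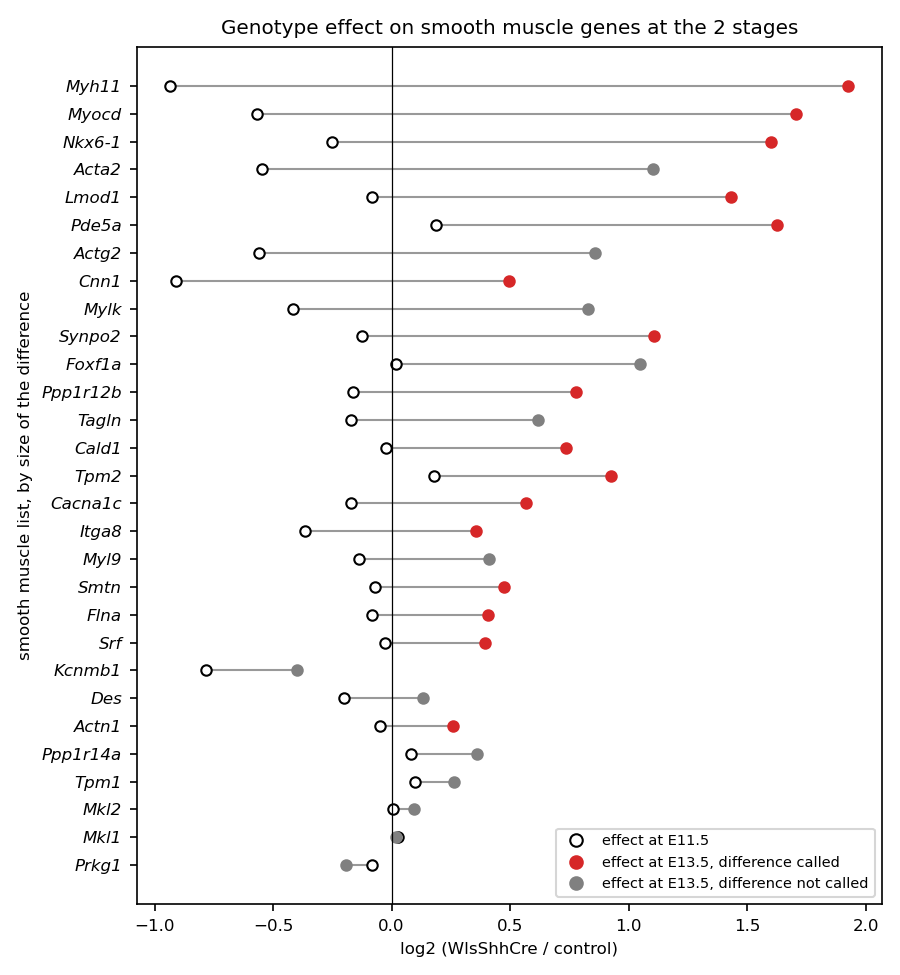
Genotype effect (log2 ratio of mutant to control, horizontal axis) on each of the 29 smooth muscle genes at E11.5 (open circles) and E13.5 (filled circles; red where the stage difference was called), ordered by the stage difference. For 16 genes the stage difference was called, and in each the filled circle lies to the right of the open one.

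Srf binds a DNA element named the CArG box, and promoters of the smooth muscle list were searched for it in the 300 bases from 250 before to 50 after the gene start (RefSeq, build GRCm38.p6, both strands, since the element reads the same class of letters on either one). Only exact matches of 10 letters were counted: CC, then A or T at every position, then GG. Elements with a mismatch were not counted, so a promoter without a match can still hold a related element. The Acta2 promoter, for example, holds ccctatatgg, with a C in place of an A or T, and was not counted. Of the 29 genes 24 matched the promoter table. Myh11, Myocd, Actg2, Tagln and Foxf1 did not match, so their promoters were not searched. Among the 24 matched genes, 2 (8.33%) held an exact CArG box, Srf and Myl9. This compares with 188 of 11569 tested genes matched (1.63%) and 488 of 27025 genes in the promoter table (1.81%). Of the called members that matched, which leaves out Myh11 and Myocd, 1 of 14 held it. Of all matched genes called higher 4 of 185 (2.16%) held it, and of those called lower 4 of 187 (2.14%). The promoters are shown for Srf, with boxes starting 82 and 62 bases before the gene start, for Myl9, a myosin light chain that was not called, with one starting 161 bases before it, and for Cnn1, which changed sign and held none in this window. Capitals mark the CArG box. The positions are chr17:46556113-46556412 on the minus strand for Srf, chr2:156775214-156775513 on the plus strand for Myl9 and chr9:22099003-22099302 on the plus strand for Cnn1. A match describes the letters and does not show a site in use.
Srf: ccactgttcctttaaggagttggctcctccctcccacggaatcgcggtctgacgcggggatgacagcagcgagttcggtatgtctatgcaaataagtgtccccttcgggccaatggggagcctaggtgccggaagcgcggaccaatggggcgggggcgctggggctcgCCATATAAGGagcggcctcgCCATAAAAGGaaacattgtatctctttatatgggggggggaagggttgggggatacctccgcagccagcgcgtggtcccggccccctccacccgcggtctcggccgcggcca
Myl9: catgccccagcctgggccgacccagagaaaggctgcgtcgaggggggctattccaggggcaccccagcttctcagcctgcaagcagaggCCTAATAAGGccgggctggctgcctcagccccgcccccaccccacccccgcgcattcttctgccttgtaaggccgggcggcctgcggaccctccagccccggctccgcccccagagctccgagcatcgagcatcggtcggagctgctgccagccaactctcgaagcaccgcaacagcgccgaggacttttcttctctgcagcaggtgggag
Cnn1: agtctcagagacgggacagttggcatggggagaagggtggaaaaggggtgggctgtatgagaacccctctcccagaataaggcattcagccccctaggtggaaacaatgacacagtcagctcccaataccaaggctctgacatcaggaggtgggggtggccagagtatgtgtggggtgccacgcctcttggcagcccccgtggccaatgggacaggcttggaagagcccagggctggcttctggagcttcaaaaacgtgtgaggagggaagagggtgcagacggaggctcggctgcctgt

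Genes of airway epithelium also had higher stage differences, of smaller size. Of 33 listed and tested, 9 (27.3%) were called higher, beside 1.63% of all genes tested, and none lower. Above 0 lay 30, and the median was 0.50, with a median effect of 0.14 at E11.5 and 0.65 at E13.5. The 9 were the transcription factors Grhl2 and Foxa1, the splicing factor Esrp2, the adhesion molecule Epcam, the junction proteins Cldn4 and Dsp, the protease inhibitors Spint1 and Spint2 and the keratin Krt18. Spint2 was at 54.3 and 53.2 CPM among E11.5 controls, 60.9 and 67.7 among E11.5 mutants, 85.00 and 83.8 among E13.5 controls and 141 and 141 among E13.5 mutants. The mutants stood above the controls at both stages, by 0.26 and 0.74. For Epcam the values were 75.5 and 64.01 CPM among E11.5 controls, 79.5 and 82.1 among E11.5 mutants, 127 and 137 among E13.5 controls and 209 and 218 among E13.5 mutants. Neither stage had overlapping groups, and the stage difference was 0.48 (SE 0.10, adjusted p = 0.023), a call lost without E11.5 control 1, E11.5 mutant 1, E11.5 mutant 2 or E13.5 control 1, with adjusted p up to 0.12. Spint1 gave 16.4 and 14.8 CPM among E11.5 controls, 12.9 and 17.1 among E11.5 mutants, 17.9 and 20.6 among E13.5 controls and 37.7 and 34.9 among E13.5 mutants. Its E11.5 groups overlapped, and the stage difference was 0.96 (SE 0.19, adjusted p = 0.013).

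The epithelial count rested on single libraries: none of the 9 was called without E11.5 control 1, 2 genes of the list were called without E13.5 control 1, and 3 without E11.5 mutant 1. The defining gene Cdh1, or E-cadherin, had a stage difference of 0.44 (SE 0.14, adjusted p = 0.14). Nkx2-1 itself was at 60.5 and 52.2 CPM among E11.5 controls, 62.3 and 74.4 among E11.5 mutants, 73.5 and 69.1 among E13.5 controls and 93.3 and 92.1 among E13.5 mutants. The mutant libraries stood above the controls at both stages, by 0.28 and 0.38, and the stage difference was 0.10 (SE 0.13, adjusted p = 0.80). Trp63, the basal cell factor, had 0.74 (SE 0.29, adjusted p = 0.24). The basal cell keratin Krt5 stood at 0.553 and 0.772 CPM among E11.5 controls, 1.12 and 1.146 among E11.5 mutants, 1.404 and 0.7498 among E13.5 controls and 10.9 and 26.8 among E13.5 mutants. The 2 E13.5 mutants differed widely from each other, and the stage difference of 3.35 (SE 1.22, adjusted p = 0.26) was not called.

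Wnt pathway genes did not move in 1 direction. Of 23 tested Wnt/beta-catenin targets and feedback genes, 2 were called higher and 3 lower (21.7%, beside 3.34% of all genes tested), with a median of 0.07. The higher count was 0 without E11.5 mutant 1 or E13.5 control 1, and 1 without any other library but E13.5 mutant 2. Axin2 and Lef1, common readouts of the pathway, were called lower in the mutants at both stages. Axin2, a scaffold that limits beta-catenin, was at 50.3 and 46.5 CPM among E11.5 controls, 34.9 and 29.9 among E11.5 mutants, 27.6 and 23.9 among E13.5 controls and 18.4 and 18.96 among E13.5 mutants. Its stage difference was 0.12 (SE 0.14, adjusted p = 0.78). Lef1, a DNA-binding partner of beta-catenin, was at 29.1 and 30.8 CPM among E11.5 controls, 15.9 and 15.7 among E11.5 mutants, 8.800 and 8.25 among E13.5 controls and 4.62 and 4.799 among E13.5 mutants. The stage difference was 0.07 (SE 0.18, adjusted p = 0.91), and a p that misses the threshold does not show that the effects were alike. Notum, a secreted enzyme that inactivates Wnt proteins, was at 29.02 and 22.2 CPM among E11.5 controls, 6.01 and 8.201 among E11.5 mutants, 17.2 and 17.99 among E13.5 controls and 2.203 and 2.63 among E13.5 mutants. The mutants were lower at both stages without overlap, and the stage difference was -1.02 (SE 0.27, adjusted p = 0.063).

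The called targets behaved otherwise. Ccnd1, cyclin D1, was at 311 and 319.6 CPM among E11.5 controls, 269 and 295 among E11.5 mutants, 405 and 380.2 among E13.5 controls and 223 and 228 among E13.5 mutants. The mutants were lower without overlap at both stages, by -0.16 at E11.5 and -0.80 at E13.5, and the stage difference was -0.64 (SE 0.08, adjusted p = 9.5e-04). Myc, the growth transcription factor, was at 62.3 and 68.04 CPM among E11.5 controls, 59.7 and 64.2 among E11.5 mutants, 52.1 and 48.9 among E13.5 controls and 27.6 and 29.4 among E13.5 mutants. Its E11.5 groups overlapped, and the stage difference was -0.76 (SE 0.11, adjusted p = 0.0019). Tnfrsf19, described among the sign changes, was called higher, as was Rnf43, which removes Frizzled receptors from the membrane (0.67, adjusted p = 0.046). The call of Rnf43 was lost in every fit without a library other than E13.5 mutant 2, with adjusted p up to 0.16. Cdx2, the remaining called member, is an intestinal factor that is also on the intestine list, with a call lost in every fit without a library other than E11.5 mutant 1, E13.5 control 1 or E13.5 mutant 2, with adjusted p up to 0.087, and with no counts in the E13.5 mutants and at most 1.058 CPM elsewhere.

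Among 37 tested ligands, receptors and modulators, 4 were called higher and 4 lower, Wls included (21.6%, beside 3.34% of all genes tested), with a median of 0.02. None was called higher without E11.5 control 1 or E13.5 control 1, 2 were without either E11.5 mutant, and 2 were called lower without E11.5 mutant 1. Wnt7b, a ligand of airway epithelium, was at 108 and 104 CPM among E11.5 controls, 106 and 122 among E11.5 mutants, 108 and 119.8 among E13.5 controls and 229.8 and 194 among E13.5 mutants. Mutant and control overlapped at E11.5 and were apart at E13.5, and the stage difference was 0.79 (SE 0.13, adjusted p = 0.011). Leaving out E11.5 control 1 or E13.5 control 1 ended the call (adjusted p up to 0.068). Wnt2, a ligand of mesenchyme in the developing lung, was at 18.1 and 13.6 CPM among E11.5 controls, 18.4 and 19.4 among E11.5 mutants, 7.11 and 8.62 among E13.5 controls and 18.1 and 23.5 among E13.5 mutants. Its stage difference was 1.13 (SE 0.24, adjusted p = 0.023). The call did not hold without E11.5 control 1, E11.5 mutant 1, E11.5 mutant 2 or E13.5 control 1, where the adjusted p reached up to 0.13. Wnt5a, a ligand that acts largely apart from beta-catenin, was at 151 and 166 CPM among E11.5 controls, 164 and 148 among E11.5 mutants, 165 and 175 among E13.5 controls and 122 and 116 among E13.5 mutants. It was lower in the mutants at E13.5 alone by the size limit, and the stage difference was -0.49 (SE 0.10, adjusted p = 0.013). Its call was lost without E11.5 control 1, E11.5 mutant 1 or E13.5 control 2, with an adjusted p of up to 0.082. The receptor gene Fzd1 stood at 162 and 174 CPM among E11.5 controls, 168 and 161 among E11.5 mutants, 176 and 175 among E13.5 controls and 120.1 and 123 among E13.5 mutants. Its stage difference of -0.50 (SE 0.08, adjusted p = 0.0034) was called whichever library was left out. Fzd10 changed sign upward (1.07, adjusted p = 0.026), a call lost without E11.5 control 1, E11.5 mutant 1, E11.5 mutant 2 or E13.5 control 1, with adjusted p up to 0.13. Rspo3, which strengthens Wnt signalling, changed sign downward (-1.28, adjusted p = 0.038), a call lost in every fit without a library other than E11.5 control 1 or E11.5 mutant 2, with adjusted p up to 0.14. Kremen1, a receptor of Wnt inhibitors, was the fourth higher gene (0.66, adjusted p = 0.012), with its call lost without E11.5 control 1 or E13.5 control 1, with adjusted p up to 0.065. Wnt4 stood higher in the mutant libraries at both stages, and its stage difference was 0.12 (SE 0.31, adjusted p = 0.91).

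Targets of bone morphogenetic protein (BMP) signalling had a median stage difference below 0. Of 25 BMP genes tested, 3 were called lower and 1 higher, together 16% beside 3.34% of all genes tested. The 3 were among the 8 targets, whose median was -0.60. The lower count of the BMP list was 1 without E11.5 control 2 and 5 without E13.5 mutant 2. Id3, a direct BMP target that blocks helix-loop-helix factors, was at 225 and 232 CPM among E11.5 controls, 211 and 211 among E11.5 mutants, 233 and 215 among E13.5 controls and 117 and 136 among E13.5 mutants. The mutant values lay below the controls at both stages, and the stage difference was -0.70 (SE 0.10, adjusted p = 0.0014), called whichever library was left out. Its relative Id1 was at 53.8 and 47.8 CPM among E11.5 controls, 43.8 and 44.1 among E11.5 mutants, 77.2 and 76.6 among E13.5 controls and 39.97 and 46.6 among E13.5 mutants. The stage difference was -0.62 (SE 0.12, adjusted p = 0.012). Leaving out E11.5 control 2 or E13.5 control 1 ended the call (adjusted p up to 0.067). Msx2, a homeobox target, was at 7.92 and 5.83 CPM among E11.5 controls, 4.58 and 3.17 among E11.5 mutants, 6.27 and 7.22 among E13.5 controls and 0.806 and 1.17 among E13.5 mutants. It was lower at both stages, by -0.83 and -2.77, and the stage difference was -1.93 (SE 0.40, adjusted p = 0.018). The call did not hold without E11.5 control 2, E11.5 mutant 1, E13.5 control 2 or E13.5 mutant 1, where the adjusted p reached up to 0.087. Bmpr1b, a receptor, was the called higher member (0.72, adjusted p = 0.011; 0.056 without E11.5 control 2). The ligand gene Bmp4 had a stage difference of -0.43 (SE 0.14, adjusted p = 0.14). Msx1, lower in the mutants at both stages, had one of 0.70 (SE 0.41, adjusted p = 0.45).

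Transcription factors that pattern the mesenchyme were mostly below 0: of 28 tested, 6 were called lower and 2 higher, and the median was -0.41. The share called was 28.6%, beside 3.34% of all genes tested. The lower count was 3 without E11.5 control 1 and 11 without E13.5 mutant 2. Tbx2, a T-box repressor, was at 224 and 211 CPM among E11.5 controls, 146 and 145 among E11.5 mutants, 221 and 222 among E13.5 controls and 81.4 and 88.1 among E13.5 mutants. The mutants were lower without overlap at both stages, by -0.58 (adjusted p = 4.2e-04) and -1.39 (adjusted p = 2.3e-08), and the stage difference was -0.81 (SE 0.08, adjusted p = 1.3e-04). Gata5, a factor of foregut and heart mesoderm, was at 30.6 and 36.98 CPM among E11.5 controls, 27.7 and 38.2 among E11.5 mutants, 10.1 and 9.84 among E13.5 controls and 2.47 and 2.22 among E13.5 mutants. Mutants and controls overlapped at E11.5, and at E13.5 the mutants were lower by -2.08, a stage difference of -2.05 (SE 0.25, adjusted p = 8.3e-04). Hoxa5, a homeobox gene needed for normal trachea and lung in mice, was at 51.97 and 42.04 CPM among E11.5 controls, 42.04 and 42.9 among E11.5 mutants, 90.7 and 91.00 among E13.5 controls and 31.2 and 38.2 among E13.5 mutants. The E13.5 controls stood above all other libraries, and the stage difference was -1.25 (SE 0.16, adjusted p = 0.0013). Alx1 and Meis1 were among the others called lower (-0.94 and -0.43). The call of Alx1 was lost in every fit without a library other than E13.5 control 1 or E13.5 mutant 1, with adjusted p up to 0.097, and that of Meis1 was lost in every fit without a library other than E11.5 mutant 2 or E13.5 mutant 2, with adjusted p up to 0.17. Foxp1 was higher with Foxf2 (0.52, SE 0.08, adjusted p = 0.0026). Tbx4 and Tbx5, lower in the mutants at both stages, had stage differences of -0.69 (SE 0.20, adjusted p = 0.12) and -0.40 (SE 0.11, adjusted p = 0.072). The calls of Tbx2, Gata5, Hoxa5, Foxp1 and Foxf2 held whichever library was left out.

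Few stage differences of cartilage genes were called, and the count rested on single libraries. Of 21 tested, 1 (4.76%, beside 3.34% of all genes tested) was called higher and none lower by edgeR. The median was -0.24, with median effects of -0.66 at E11.5 and -0.83 at E13.5. At an unadjusted p under 0.05 there were 4. Without E13.5 mutant 1, 4 cartilage genes were called lower, Sox9 and Col2a1 among them, and without E13.5 mutant 2, 2 were. The higher count was 0 without E11.5 control 1, E11.5 mutant 2, E13.5 control 1 or E13.5 mutant 1. Sox9, the master regulator of cartilage, was at 117 and 138 CPM among E11.5 controls, 95.2 and 84.5 among E11.5 mutants, 163 and 145 among E13.5 controls and 77.8 and 59.7 among E13.5 mutants. It was lower in the mutants at both stages without overlap, and the stage difference was -0.66 (SE 0.21, adjusted p = 0.20). Col2a1, the main cartilage collagen, had -0.37 (SE 0.42, adjusted p = 0.77). Without E13.5 mutant 1 their stage differences were -0.86 (adjusted p = 0.0091) and -0.84 (adjusted p = 0.0011). The proteoglycan gene Acan was at 0.921 and 0.601 CPM among E11.5 controls, 0.305 and 0.353 among E11.5 mutants, 6.83 and 8.997 among E13.5 controls and 4.996 and 0.878 among E13.5 mutants. The 2 E13.5 mutants were far apart, and the stage difference was -0.24 (SE 1.84, adjusted p = 0.98). The exception was Runx2, a bone and cartilage factor, at 19.3 and 15.3 CPM among E11.5 controls, 6.92 and 5.38 among E11.5 mutants, 3.93 and 4.499 among E13.5 controls and 4.78 and 3.45 among E13.5 mutants. The mutants were lower at E11.5, where the controls were highest, and overlapped the controls at E13.5, so the effect went from -1.50 (adjusted p = 0.0048) to -0.03, a stage difference of 1.47 (SE 0.31, adjusted p = 0.020). Its call was lost without E11.5 control 1, E11.5 mutant 2, E13.5 control 1 or E13.5 mutant 1, with an adjusted p of up to 0.11.

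In hedgehog signalling 2 of 11 tested (18.2%) were called higher, beside 1.63% of all genes, the receptor and target gene Ptch1 (0.45, adjusted p = 0.047) and the inhibitor Hhip (0.93, adjusted p = 0.040). The call of Ptch1 was lost in every fit without a library other than E11.5 control 1, with adjusted p up to 0.18. That of Hhip was lost in every fit without a library other than E13.5 control 1 or E13.5 control 2, with adjusted p up to 0.13. Shh, whose locus carries the Cre, had a stage difference of 0.58 (SE 0.29, adjusted p = 0.39). Fibroblast growth factor signalling had 2 of 17 (11.8%) called higher, the receptor Fgfr2 (0.42, adjusted p = 0.014) and the feedback inhibitor Spry1 (0.64, adjusted p = 0.024). The first call was lost without E11.5 control 1, E13.5 control 1 or E13.5 mutant 1, with adjusted p up to 0.077, and the other was lost in every fit without a library other than E11.5 control 2, E13.5 control 2 or E13.5 mutant 2, with adjusted p up to 0.11. Of 12 Notch genes none was called by edgeR, 2 had an unadjusted p under 0.05, and leaving out a library gave at most 1 in each direction.

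Markers of other cell types moved with the stage as follows, where 3.34% of all genes tested were called. Of 25 neuronal and glial genes 18 lay below 0, with a median of -0.99, and 1 was called. The number called lower was 11 without E11.5 mutant 2, and 4 without E11.5 mutant 1 or without E13.5 mutant 2. The called gene was Dcx, a microtubule protein of young neurons, at 21.7 and 21.1 CPM among E11.5 controls, 47.5 and 36.7 among E11.5 mutants, 41.00 and 33.9 among E13.5 controls and 34.2 and 33.5 among E13.5 mutants. The effect went from 0.97 at E11.5 to -0.15 at E13.5, where the groups overlapped, and the stage difference was -1.12 (SE 0.18, adjusted p = 0.0048), called whichever library was left out. All 17 immune genes lay below 0, with a median of -0.70, and 1 of them, Lyz2, was called (-1.23, adjusted p = 0.049), a call lost whichever library was left out, with adjusted p up to 0.17. Of 21 endothelial genes 19 lay below 0, with a median of -0.57 and none called by edgeR, 10 of them with an unadjusted p under 0.05. Single libraries moved that count: 7 were called lower without E13.5 mutant 2, 6 without E11.5 mutant 2, and 1 each without E13.5 control 1 and without E13.5 mutant 1. Skeletal muscle had a median of 0.65 over 20 genes, cardiac muscle -0.55 over 13, and erythroid genes -0.23 over 13, none of them called by edgeR, while 4 skeletal muscle genes were called higher without E13.5 mutant 2 and 1 erythroid gene lower without E11.5 mutant 2. Thyroid, parathyroid and thymus genes had a median of -1.92 over 7 tested, with thyroglobulin (Tg) called (-2.51, adjusted p = 0.035), a call lost in every fit without a library other than E11.5 mutant 1 or E13.5 mutant 1, with adjusted p up to 0.16. Distal lung markers had a median of -0.22 over 7, and mesothelium and pericytes 0.01 over 12, with none called by edgeR. Without E13.5 mutant 2, 1 of the former and 2 of the latter were called lower, and without E13.5 mutant 1, 2 of the latter were called higher. Fibrous connective tissue had a median of -0.13 over 24, with the collagen gene Col6a2 called higher (1.04, adjusted p = 0.021), a call lost without E11.5 mutant 1, E11.5 mutant 2 or E13.5 control 1, with adjusted p up to 0.13. Without E13.5 mutant 2 the lower counts were 3 in the immune, 3 in the fibrous connective tissue and 2 in the thyroid, parathyroid and thymus list, the last also without E13.5 mutant 1. The part of these cell types in the stage differences was not tested.

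Cell cycle genes had a median of -0.04 over 25, none called by edgeR and 3 with an unadjusted p under 0.05. Genes of the immediate early and heat shock responses, which react quickly to stimulation of cells, all lay above 0, 19 of 19, with a median of 0.76. Of them 4 had an unadjusted p under 0.05 in edgeR. The summed level of the list was 910 and 754 CPM in the E11.5 controls and 689 and 711 in the E11.5 mutants. At E13.5 it was 651 and 1032 in the controls and 1560 and 997 in the mutants, so the E13.5 groups overlapped. The values of Egr1, chosen after they were seen, were 44.04 and 13.8 CPM among E11.5 controls, 13.1 and 12.96 among E11.5 mutants, 30.99 and 92.03 among E13.5 controls and 275 and 105 among E13.5 mutants. The replicates were close among the E11.5 mutants and far apart in the other 3 groups. Of the 19 genes, Btg2 was called (0.76, SE 0.13, adjusted p = 0.0055), a share of 5.26% beside 3.34% of all genes tested. In hypoxia and glycolysis 1 of 18 was called, Egln3, an oxygen-sensing enzyme (0.86, SE 0.16, adjusted p = 0.0086), and the median was 0.18. Of the immediate early and heat shock list 3 were called without E13.5 control 2 and 2 without E13.5 mutant 2, and of the hypoxia list 2 without E13.5 mutant 2. The calls of Btg2 and Egln3 held whichever library was left out.

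**Figure D5:**
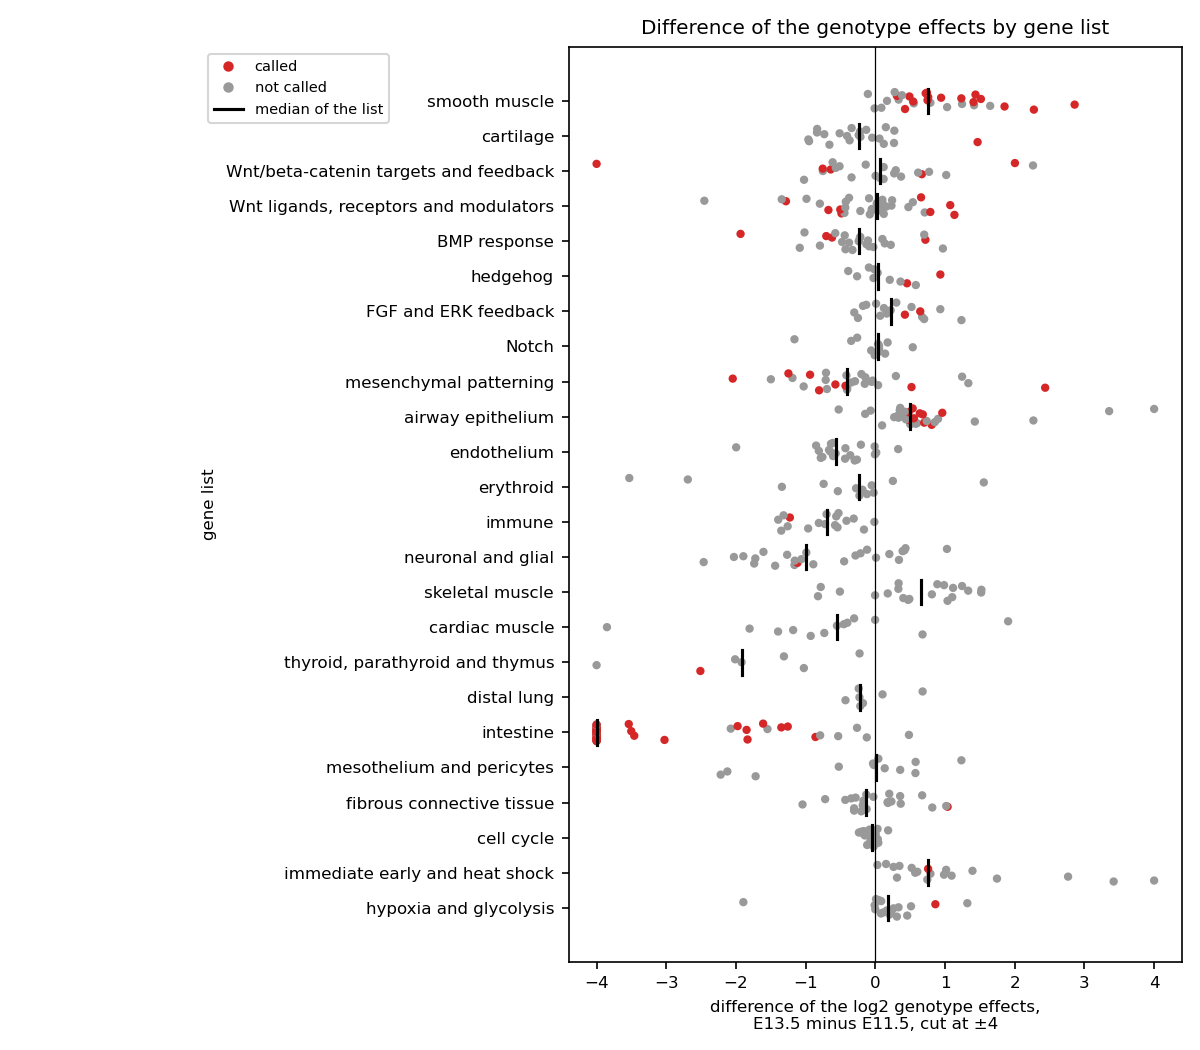
Stage difference of each tested member of the 24 gene lists (points; red where called), with the median of the list (black bar); values beyond 4 are drawn at the edge. The smooth muscle and airway epithelium medians lie at 0.75 and 0.50, that of mesenchymal patterning at -0.41, and the intestine list reaches the left edge.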

How the data were processed

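RNA of whole tracheae was sequenced in 8 libraries, placed in 4 groups of 2 by the stage and genotype in their labels. The authors deposited 1 table per stage. Per the file headers, each library has a column of raw counts and one of read density. The raw count columns hold estimated counts as deposited, because 76.3% to 82.6% of nonzero values, depending on the library, have decimals. The deposited read density behaves as an RPKM and served only to compare gene lengths between the tables, which differed by over 0.5% for 914 of 15195 entries. Per the labels' protocols, Trizol RNA was made into libraries with the Nextera XT kit, which does not mark strand, so reads of overlapping genes on opposite strands cannot be told apart. The submitters' processing notes name build mm9 and the tools Cufflinks 2.0.2, DESeq, TopHat2 2.0.8 and Bowtie2 2.1.0. Which of them counted the reads, and the gene annotation, were not given in the sources used here.

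Both tables were joined by gene ID (37526 IDs in both). Entries naming no gene (2 at E11.5 and 6 at E13.5, 0.000985% to 0.0253% of a library's counts) were left out. Counts of symbols with several entries were summed (483 entries of 239 symbols, leaving 37282) and rounded. The design had assumed whole counts. edgeR 4.0.16 in R 4.3.3 was run with TMM scaling (factors 0.980 to 1.02) and filterByExpr. The robust quasi-likelihood fit had 1 mean per group and 4 residual degrees of freedom. It was also run on simulated counts with the same spread for every gene. That setting is simpler than these libraries, so it cannot give the error rate here. Benjamini-Hochberg adjustment ran over all 14901 genes tested. Values given as SE were worked back from the test, not fitted directly. Each is the size of the log2 value divided by the square root of the quasi-likelihood F statistic. CPM use the TMM-scaled library sizes. The common biological coefficient of variation came to 7.79%. Libraries of 1 group were further apart than sampling noise allows (chi-square per degree of freedom 3.38 to 8.57), so none was merged. The reads carry no molecular identifiers, so values near 0 are uncertain beyond counting error.

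Genes were named by a rule: Wls; the 8 most positive and 8 most negative called genes with a mean of at least 5 CPM and no library at 0; the 6 smallest p in each direction of the sign change and new classes; up to 4 called members of each of 24 lists; and defining genes of the tissue. This gave 86 genes, some of which are not reported here. Other called list members and Egr1 were named after their values were seen. The classes, members and lists were chosen with earlier results of these data known. Alternatives were DESeq2 1.42.0, limma-voom (limma 3.58.1), other scalings and filters, and leaving out each library.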

Additional observations from a re-analysis of the deposited data

Results flagged for a closer look

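The genotype effect differed between E11.5 and E13.5, by a test of the difference itself, for 497 of 14901 genes. Every gene whose stage difference is given as called in the report is among them, and of the 497 genes 3 with opposite signs and 8 with the same sign were also called at both single stages. For Smoc2 the difference of the effects was 1.83 on the log2 scale, for Cnn1 1.41 and for Tpbg 1.28, in each case from a lower level in the E11.5 mutants to a higher level in the E13.5 mutants. For Wls it was -0.67, with mutants lower at both stages. The part of sex makeup in these differences was not tested. Library depth and the genes near 0 in the E13.5 mutants were looked at only by refitting, which does not name a cause. With the libraries thinned to the smallest, 496 genes were called, 442 of them shared with the 497. In that fit Smoc2, Cnn1 and Tpbg were called at both stages with opposite signs. Without the intestine markers and the genes near 0, an alternative chosen after seeing the data, 376 genes were called, and Smoc2, Cnn1 and Tpbg were again called at both stages with opposite signs.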

How the results depend on the processing

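With DESeq2 434 genes were called, 342 of them shared with the 497, and with limma-voom 443, of which 430 shared. Other scalings gave 491 and 507 genes, no low-count filter 620, a filter at 1 CPM in 4 libraries 498, thinning to the smallest library 496, the non-robust fit 433, and restriction to genes of equal length 480. Leaving out each library in turn gave 280 to 675 called genes, 123 to 315 higher and 153 to 360 lower; sign changes numbered 18 to 44 higher and 41 to 145 lower, and genes new at E13.5 87 to 224 higher and 66 to 216 lower. The smooth muscle list had 8 to 16 called and the airway epithelium list 0 to 12, with the intestine list at 29 to 36. Wls stayed called in all of these fits, with stage differences of -0.73 to -0.62. With a size limit of 0.2, sign changes in the higher direction numbered 53, and with 0.5 they numbered 16 higher and 42 lower. A minimum mean of 1 CPM in every group, chosen after seeing the data, gave 156 lower genes, 32 lower sign changes and 8 lower intestine markers. Leaving out intestine markers and genes near 0, also chosen after seeing the data, gave 146 lower genes, 33 lower sign changes and 91 lower genes new at E13.5. These last counts are smaller by construction, since genes were removed. For the others the cause was not tested.

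Some uncalled genes turned sign when a library was left out. Over these fits Nkx2-1 ran from -0.022 to 0.23 and Wnt4 from -0.14 to 0.48, both below 0 without E11.5 control 1 and without E11.5 mutant 1. Acan ran from -1.99 to 0.51, above 0 without E11.5 control 2 and without E13.5 mutant 2.

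Same-numbered libraries showed little shared deviation over all genes (correlation 0.045 at E11.5 and 0.044 at E13.5), and the main fit did not pair them. With 2 libraries per group, such a correlation cannot tell whether same-numbered libraries shared a litter or a preparation. A fit with the replicate block within stage called 562 genes, 437 of them shared with the 497, and 47 sign changes in the higher direction.

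Depth limits the low genes most, and counts of 0 in the E13.5 mutants leave those folds without an upper bound.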

Other observations

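The families here were picked after their values were seen, so no test of the family is given. For the same reason the counts of called members are not evidence about a family. The 6 Iroquois homeobox genes encode transcription factors that pattern many embryonic tissues. Of these genes 5 were tested and 4 had a called higher stage difference, beside 1.63% of all genes tested. Irx3 was at 27.5 and 31.0 CPM among E11.5 controls, 37.7 and 44.0 among E11.5 mutants, 12.2 and 15.7 among E13.5 controls and 62.5 and 53.2 among E13.5 mutants. The mutants stood above the controls at both stages, and the stage difference was 1.57 (SE 0.19, edgeR adjusted p = 9.5e-04). For Irx5 it was 1.33 (SE 0.16, adjusted p = 5.0e-04). Both calls held whichever library was left out. Irx1 was at 72.6 and 81.9 CPM among E11.5 controls, 67.6 and 86.5 among E11.5 mutants, 10.7 and 9.37 among E13.5 controls and 46.1 and 32.9 among E13.5 mutants. Its E13.5 controls stood below every other library, and the stage difference was 1.98 (SE 0.30, adjusted p = 0.025). Irx2 had 1.66 (SE 0.28, adjusted p = 0.030). The calls of Irx1 and Irx2 were lost without E11.5 control 1, E11.5 control 2, E13.5 control 1 or E13.5 control 2, with adjusted p up to 0.14 and 0.17, and that of Irx2 also without E11.5 mutant 1.

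Genes of sterol synthesis and its control mostly had small stage differences below 0. Of 22 tested, 19 lay below 0, with a median of -0.23, and 6 were called lower, beside 1.7% of all genes tested. The called members included Sc4mol (-0.58), Insig1 (-0.46), Fdps (-0.46) and Cyp51 (-0.43), and none of the 6 calls held in every fit that left out a library, with adjusted p up to 0.19.

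In the GDNF family, Gdnf and its receptor subunit Gfra1 were called higher, 2 of 8 tested, beside 1.63% of all genes tested. The signalling receptor Ret had a stage difference of 0.34 (SE 0.27, edgeR adjusted p = 0.64). In the Hoxa cluster, Hoxa4 at -0.68 (SE 0.12, adjusted p = 0.0056) was called lower beside Hoxa5, and the calls of both held whichever library was left out. Hoxa4 and Hoxa5 were 2 of 5 cluster members tested, where 1.7% of all genes tested were called lower. The 6 members from Hoxa6 on were too low to be tested.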
